A study of Mus musculus with 8 samples.

Results

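The genes described here are 10 components of the circadian clock, Per1, Per2, Per3, Cry1, Cry2, Arntl, Clock, Nr1d1, Nr1d2 and Dbp, chosen by name as a pathway from the 55536 genes of the count table. All 10 were found once in the table and all 10 passed the filter on low counts, which left 18266 genes for testing. They were measured in MIN6, an insulin-producing cell line from a mouse pancreatic tumour, labelled as wild type and as beta cells. The 4 control libraries came from cells given the empty vector pcDNA 3, and the 4 libraries called Klf4 here from cells given pGloMyc-Klf4, a plasmid for the zinc-finger transcription factor Klf4. Both groups received the lipid reagent Lipofectamine 3000 for 48 h, and each contributed 2 libraries (replicates 1 and 2) to batch 1 and 2 (replicates 3 and 4) to batch 2. The plasmids carry different backbones by their names, and the share of cells that took up a plasmid was not given in the labels. The extraction text speaks of islets, although each sample is labelled as the cell line. No clock time of harvest and no step to synchronise the cultures was given in the labels either.

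The clock is a feedback loop of transcription that runs in most mammalian cells. CLOCK and BMAL1 (the product of Arntl) bind E-boxes and activate the Per, Cry, Nr1d1, Nr1d2 and Dbp genes, PER and CRY proteins then block CLOCK and BMAL1, and the REV-ERB receptors made from Nr1d1 and Nr1d2 repress Arntl through response elements shared with the ROR receptors. DBP activates genes with a D-box. In pancreatic beta cells the clock is known to shape the daily rhythm of insulin secretion.

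The promoters of 4 clock genes are shown because they hold letters that match the response elements named above. Of the 10 genes, 9 had an entry in the RefSeq promoter table (GRCm38.p6), all but Per2. The 250 bases before the most upstream start in that table were read, up to the first base annotated as an exon in GENCODE, which left bases for 8 genes (none for Clock, and 91 for Dbp). For Per1 this start is not the most upstream one in GENCODE, where another transcript model begins at 69095217, so the stretch shown lies before a later start and within an intron of that other model. Each sequence is on the gene's own strand, 5′ to 3′. Capitals mark matches to 3 elements. The first is the E-box, CACGTG. The second is an E-box variant, read as CACGTT on the other strand. The third is the D-box, TTATGTAA. Nr1d1 lies at chr11:98775378-98775627 (minus strand), Per1 at chr11:69098699-69098947 (plus strand), Cry1 at chr10:85185065-85185304 (minus strand) and Per3 at chr4:151044666-151044915 (minus strand).

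Nr1d1: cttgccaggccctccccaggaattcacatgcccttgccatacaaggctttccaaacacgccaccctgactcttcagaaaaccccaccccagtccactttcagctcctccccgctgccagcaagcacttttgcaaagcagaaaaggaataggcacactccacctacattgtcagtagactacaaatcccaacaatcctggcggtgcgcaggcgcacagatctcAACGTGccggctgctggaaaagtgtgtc

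Per1: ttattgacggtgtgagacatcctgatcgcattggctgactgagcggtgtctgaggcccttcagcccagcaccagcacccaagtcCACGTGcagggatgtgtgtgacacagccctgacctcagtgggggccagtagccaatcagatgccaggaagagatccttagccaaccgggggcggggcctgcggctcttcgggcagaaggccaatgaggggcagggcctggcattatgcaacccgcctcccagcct

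Cry1: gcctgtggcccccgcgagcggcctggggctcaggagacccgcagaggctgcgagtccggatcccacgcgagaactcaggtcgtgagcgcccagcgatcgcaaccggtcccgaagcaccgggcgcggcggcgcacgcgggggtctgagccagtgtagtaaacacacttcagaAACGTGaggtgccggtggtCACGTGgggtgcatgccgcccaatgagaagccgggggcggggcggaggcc

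Per3: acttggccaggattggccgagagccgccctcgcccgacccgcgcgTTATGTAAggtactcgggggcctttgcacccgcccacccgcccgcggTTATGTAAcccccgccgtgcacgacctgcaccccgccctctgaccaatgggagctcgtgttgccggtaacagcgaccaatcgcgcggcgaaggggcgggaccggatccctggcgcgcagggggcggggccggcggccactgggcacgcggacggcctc

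Nr1d1, the gene with the largest difference between the groups, held 1 E-box variant, 28 bases before its start. Per1 and Cry1 each held the full E-box, Cry1 and Cry2 each held 1 variant, and Per3 held 2 D-boxes, the element to which DBP binds. Among 32851 promoter windows of 250 bases in the table, 6.02% held CACGTG, 3.85% held CACGTT and 0.819% held TTATGTAA on either strand. The REV-ERB and ROR elements TAGGTCA (in 2.23% of windows) and TGGGTCA (in 3.24%) and the KLF-type element GGGTGTG (in 6.93%), also searched on both strands, had no match in the stretches read for the 8 genes. Only these exact letters were searched, so other spellings of the elements, KLF-type ones among them, were not counted. The matches say nothing of elements outside the windows, and a match describes a sequence, not a bound site.

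Across the series, total counts per library were 45417853 to 52731176 and did not differ between the groups beyond the replicate spread (two-sided exact permutation p = 0.229). Klf4 itself was at 36.1 to 42.8 CPM (counts scaled to library size and composition) in control and 4532 to 5853 CPM in Klf4 libraries, which matches the labels. All 7 beta-cell markers were above 1 CPM in every library, with summed levels of 30720 to 38500 CPM in control and 28780 to 38870 CPM in Klf4 libraries. Sums of 4 fibroblast markers were 2.61 to 3.86 and 20.3 to 26.7 CPM in control and Klf4 libraries, those of 4 duct markers 0.518 to 0.945 and 3.27 to 4.84 CPM, and those of 3 endothelial markers 3.82 to 4.15 and 4.49 to 4.95 CPM. None of these 3 sets had a gene at 0 in all libraries. Alpha-cell, delta-cell, acinar and immune marker sums overlapped between the groups, and the acinar gene Cpb1 had no counts. The part of these other markers in the clock gene results was not tested. In RNA from whole cultures, fewer cells expressing a gene and less RNA per cell cannot be told apart, and with 1 time point a shift in clock phase and a change in mean level cannot be told apart.

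All 10 clock genes were expressed, with 922 to 6555 counts per library. Compared per exonic length, as CPM per kilobase of exon in the control libraries, Nr1d1 (28.5 ± 4.71, SD, n = 4), Per1 (23.3 ± 1.04) and Dbp (16.5 to 23.1 over the 4 libraries) stood highest, and the ranges of neighbours in this order overlapped. Nr1d2 followed at 13.6 ± 0.0992 and Cry2 at 10.1 ± 0.13, each clear of its neighbours. Clock (8.47 ± 0.613), Per2 (8.24 ± 1.01) and Cry1 (8.22 ± 0.165) overlapped in level. Arntl (2.80 ± 0.178) and Per3 (2.52 ± 0.0904) were lowest and overlapped with each other. These levels divide by the length of all annotated exons of a gene, 13727 bases for Clock and 2993 for Dbp, so a gene whose cells use a short transcript is understated.

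**Figure D1:**
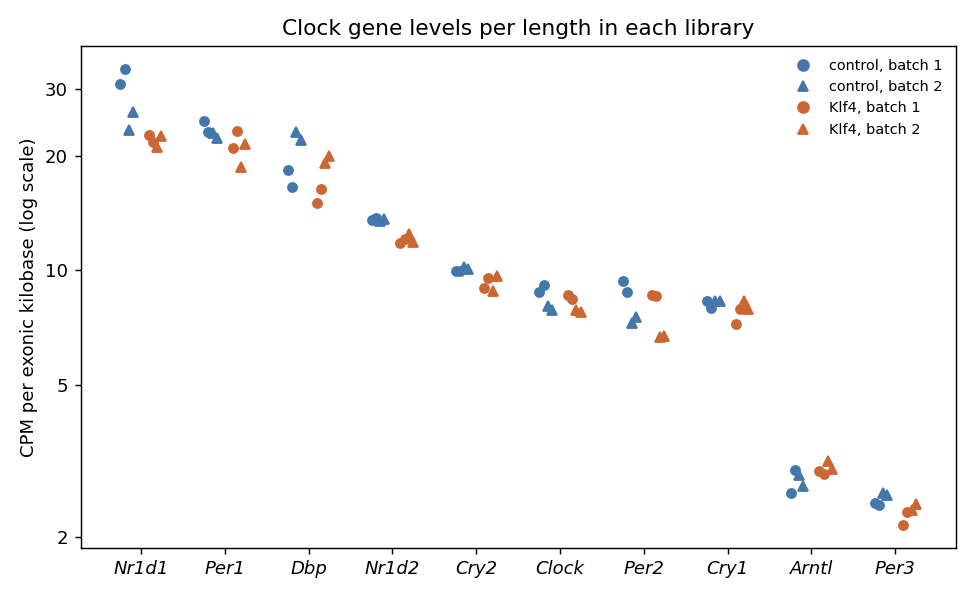
Level of each clock gene per length, as CPM per exonic kilobase on a log scale, with 1 point per library (blue control, orange Klf4, circles batch 1, triangles batch 2). Nr1d1, Per1 and Dbp are highest in control libraries and Arntl and Per3 lowest, at 2.80 and 2.52 on average.

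Of the 10 clock genes, 7 changed between the groups and all 7 were lower in Klf4 libraries: Nr1d1, Dbp, Nr1d2, Per1, Cry2, Per3 and Per2. Cry1, Clock and Arntl did not pass the threshold, an adjusted p under 0.05 in edgeR's quasi-likelihood test with a term for batch. Of all 18266 genes tested, 36.6% passed it, 15.5% lower and 21.1% higher, and of the 7962 genes at or above the average level of the lowest clock gene, 45.2% passed and 27.3% passed with a lower level in Klf4 libraries. The median log2 fold change was -0.12 over the 10 clock genes and -0.01 over all tested genes. The differences were small, with log2 fold changes from -0.36 for Nr1d1 to 0.11 for Arntl.

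**Figure D2:**
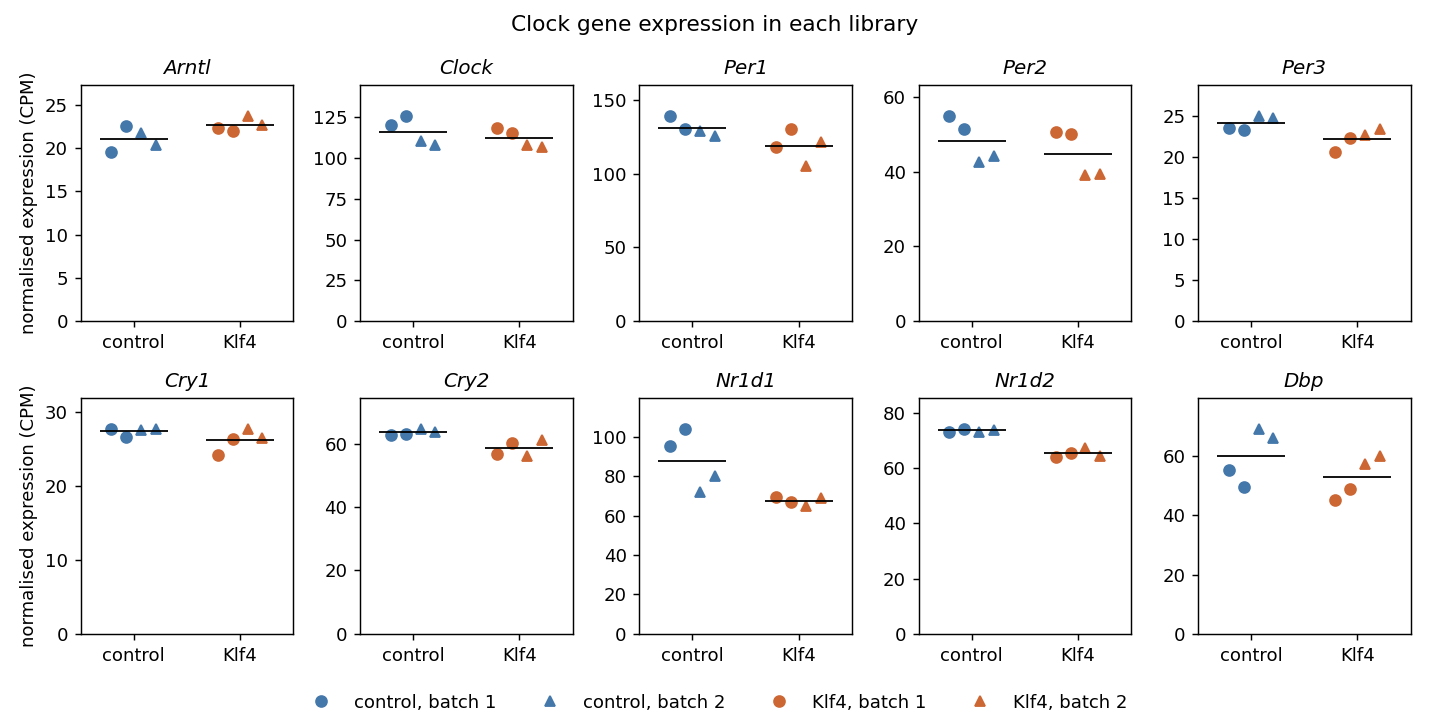
Normalised expression (CPM, y axis from 0) of each clock gene in the 8 libraries. Points are libraries (circles batch 1, triangles batch 2) and lines are group means. Every control library lies above every Klf4 library for Nr1d1, Nr1d2 and Cry2.

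Among the repressors of the loop, Nr1d1 (ENSMUSG00000020889, chromosome 11, 98767932 to 98775333, minus strand, GRCm38) encodes REV-ERBα. Its expression was 94.96, 104, 71.8 and 80.1 CPM in control replicates 1 to 4 and 69.6, 66.9, 64.7 and 69.1 CPM in Klf4 replicates 1 to 4. The control values of batch 1 were the highest, the Klf4 values lay close together, and the groups did not overlap. Nr1d1 fell by 0.36 on the log2 scale, to 0.77 of the control mean (SE 0.06, adjusted p 1.43e-05 in edgeR). In batch 1 alone the log2 fold change was -0.55 and in batch 2 alone -0.17, both past the threshold.

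Nr1d2 (ENSMUSG00000021775, chromosome 14, 18204054 to 18239127, minus strand), which encodes the related receptor REV-ERBβ, was at 73.1, 74.2, 73.1 and 73.7 CPM in control replicates 1 to 4. It was at 63.8, 65.6, 67.3 and 64.4 CPM in the Klf4 replicates. The control values lay close together and all were above the Klf4 values. Nr1d2 fell by 0.17 on the log2 scale (SE 0.03, edgeR adjusted p 0.000175), with -0.19 and -0.14 in batches 1 and 2.

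The period genes encode the PER proteins, which act with CRY to close the loop. Per1 (ENSMUSG00000020893, chromosome 11, 69095217 to 69109960, plus strand) was at 139.2, 130.1, 129.0 and 125.5 CPM in control replicates 1 to 4 and at 118.1, 130.4, 104.9 and 121.1 CPM in the Klf4 replicates. Klf4 replicate 2 lay within the control range, so the groups overlapped. Per1 fell by 0.14 on the log2 scale (SE 0.04, edgeR adjusted p 0.00764).

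Per2 (ENSMUSG00000055866, chromosome 1, 91415982 to 91459324, minus strand) was at 55.0, 51.5, 42.6 and 44.1 CPM in control and 50.6, 50.1, 39.1 and 39.5 CPM in Klf4 replicates 1 to 4. The groups overlapped across batches, since batch 2 was lower than batch 1 in both, and within each batch the control values were above the Klf4 values. Per2 fell by 0.11 on the log2 scale (SE 0.04, edgeR adjusted p 0.0257).

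Per3 (ENSMUSG00000028957, chromosome 4, 151003652 to 151044665, minus strand) was at 23.6, 23.3, 25.0 and 24.8 CPM in control and 20.6, 22.3, 22.6 and 23.4 CPM in Klf4 replicates 1 to 4. Control values were above Klf4 values within each batch but not across batches. Its log2 fold change of -0.12 (SE 0.05) lay at the edge of the threshold, with an edgeR adjusted p of 0.0492. The call was lost in 13 of 18 alternatives. These were the fit with no batch term (adjusted p 0.154 in edgeR), the replicate block (0.0681), factors from genes of high expression (0.191), no filter (0.0726), the filter at 1 CPM (0.0667), the GC and length offset without (0.051) and with the block (0.0721), and the DESeq2 Wald test (0.0642). The other 5 left out control replicate 1, 3 or 4 or Klf4 replicate 1 or 3 (0.0551 to 0.138 in edgeR).

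The cryptochrome genes differed between themselves in call, a difference that was not tested. Cry2 (ENSMUSG00000068742, chromosome 2, 92403646 to 92434043, minus strand) was at 62.8, 63.1, 64.7 and 63.6 CPM in control and 56.7, 60.3, 56.0 and 61.0 CPM in Klf4 replicates 1 to 4. All control values were above all Klf4 values. Cry2 fell by 0.12 on the log2 scale (SE 0.04, edgeR adjusted p 0.011).

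Cry1 (ENSMUSG00000020038, chromosome 10, 85131700 to 85185064, minus strand) was at 27.8, 26.6, 27.7 and 27.7 CPM in control and 24.2, 26.5, 27.8 and 26.5 CPM in Klf4 replicates 1 to 4. Klf4 replicate 1 was the lowest library and Klf4 replicate 3 lay within the control range. The log2 fold change of -0.07 had a 95% interval of -0.16 to 0.03 (edgeR adjusted p 0.292), an interval that still holds the value of Cry2.

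The activators of the loop did not pass the threshold. Arntl (ENSMUSG00000055116, chromosome 7, 113207465 to 113314126, plus strand), the gene for BMAL1, was at 19.6, 22.5, 21.8 and 20.4 CPM in control and 22.4, 22.0, 23.8 and 22.7 CPM in Klf4 replicates 1 to 4. It was the only one of the 10 with a value above 0, a log2 fold change of 0.11 with a 95% interval of -0.003 to 0.22 (edgeR adjusted p 0.124). With scaling factors from highly expressed genes, an offset for GC content and length, or without control replicate 2, the adjusted p in edgeR was 0.045, 0.0446 and 0.0472 and the log2 fold change 0.14, 0.13 and 0.14, past the threshold in these 3 fits.

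Clock (ENSMUSG00000029238, chromosome 5, 76209868 to 76304792, minus strand) was at 120.4, 126.0, 110.8 and 107.9 CPM in control and 118.5, 115.6, 107.8 and 106.9 CPM in Klf4 replicates 1 to 4. Batch 1 was above batch 2 in both groups. The plasmid term was -0.05 on the log2 scale, with a 95% interval of -0.11 to 0.01 (edgeR adjusted p 0.203), and turned to 0.04 with the offset for GC content and length.

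Dbp, the output gene of the set, encodes a transcription factor that acts through D-boxes. Dbp (ENSMUSG00000059824, chromosome 7, 45705088 to 45710203, plus strand) was at 55.0, 49.4, 69.1 and 65.9 CPM in control and 45.1, 48.9, 57.2 and 59.9 CPM in Klf4 replicates 1 to 4. Batch 2 was higher than batch 1 in both groups, and within each batch the control values were above the Klf4 values. Dbp fell by 0.18 on the log2 scale (SE 0.04, edgeR adjusted p 0.00118), with -0.16 in batch 1 and -0.19 in batch 2.

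Every control library lay above every Klf4 library for 3 of the 10 clock genes, Nr1d1, Nr1d2 and Cry2, and for 8.93% of all tested genes. The reverse held for none of the 10 and for 17.2% of tested genes. The number of clock genes called depended on the batch term: with no such term 2 were called, Nr1d1 and Nr1d2. With factors from genes of high expression 5 were called, 4 of them lower (Nr1d1, Nr1d2, Dbp and Per1) and 1 higher (Arntl), and the share of higher genes among all calls was 72.8% in place of 57.7%.

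Some clock genes share exonic bases with a neighbour on the other strand, and reads in these stretches cannot be assigned with certainty, because the sources used here do not say whether counting used strand. Dbp shares 539 exonic bases (18% of its exonic length) with Sphk2, a sphingosine kinase gene, and Nr1d1 shares 263 (8.55%) with Thra, the gene of thyroid hormone receptor α. Neither neighbour passed the threshold, with a log2 fold change of 0.06 for Sphk2 (edgeR adjusted p 0.315) and -0.03 for Thra (0.533). Cry2 shares 295 bases (4.67%) with D930015M05Rik, a non-coding transcript at under 1 CPM in every library, and Arntl 33 bases with Gm45355. D930015M05Rik did pass the threshold, opposite in direction to Cry2 (log2 fold change 0.98, edgeR adjusted p 0.0292), with 9 to 13 counts in control and 16 to 27 in Klf4 libraries and no overlap. The ratio of Nr1d1 to Thra within a library, which needs no scaling between libraries, was 0.984, 1.11, 0.631 and 0.723 in control and 0.753, 0.689, 0.604 and 0.625 in Klf4 replicates 1 to 4. That of Dbp to Sphk2 was 1.54, 1.41, 2.05 and 1.79 in control and 1.16, 1.31, 1.63 and 1.68 in the Klf4 replicates. Both ratios overlapped between the groups across batches and were higher in control within each batch. The ratio of Nr1d1 to Arntl was 4.85, 4.62, 3.29 and 3.93 in control and 3.11, 3.04, 2.72 and 3.05 in the Klf4 replicates, lower in every Klf4 than in every control library. These 2 genes had the lowest and highest log2 fold changes of the 10, so this gap follows in part from the choice of pair. The ratio of Nr1d1 to Nr1d2 was 0.983 to 1.4 in control and 0.961 to 1.09 in Klf4 libraries, with overlap.

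The study's 2 batches differed in several clock genes, in opposite directions. The term for batch 2 over batch 1 passed the threshold for 4 of the 10, Dbp higher and Per2, Nr1d1 and Clock lower, against 25.1% of all tested genes (13.4% higher and 11.6% lower). Dbp averaged 49.6 CPM in batch 1 and 63.0 CPM in batch 2 (batch term 0.34, SE 0.04, adjusted p 1.87e-06 in edgeR). Per2 averaged 51.8 and 41.3 CPM (batch term -0.33, SE 0.04, adjusted p 1.28e-06 in edgeR), and Clock 120.1 and 108.3 CPM (-0.15, SE 0.03, adjusted p 0.000746 in edgeR). For these 3 genes the 4 libraries of one batch did not overlap the 4 of the other, as for 15.3% of tested genes.

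Nr1d1 was lower in batch 2 by 0.21 on the log2 scale (SE 0.06, edgeR adjusted p 0.00663), and its Klf4 libraries overlapped between batches. That batch call was lost in the DESeq2 Wald test (adjusted p 0.107). Per1 had a batch term of -0.11 (edgeR adjusted p 0.0558), which passed the threshold in 5 of 15 alternatives: factors from genes of high expression (0.0492 in edgeR), no filter (0.0142), the GC and length offset (0.0273), and without control replicate 2 (0.0165) or Klf4 replicate 4 (0.0218). The terms of Per3, Cry1, Cry2, Arntl and Nr1d2 lay between 0.01 and 0.09. The ratio of Dbp to Per2 within a library was 0.891 to 1 in the 4 libraries of batch 1 and 1.46 to 1.62 in the 4 of batch 2. These 2 genes had the highest and lowest batch terms of the 10. Each was already apart by batch, in opposite directions, so the gap in their ratio follows from the choice of pair. For Dbp, Per2 and Clock the batch difference was larger in size than the plasmid difference (-0.15 and -0.05 for Clock). What the batches differ in, such as the hour of harvest, is not given in the labels.

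**Figure D3:**
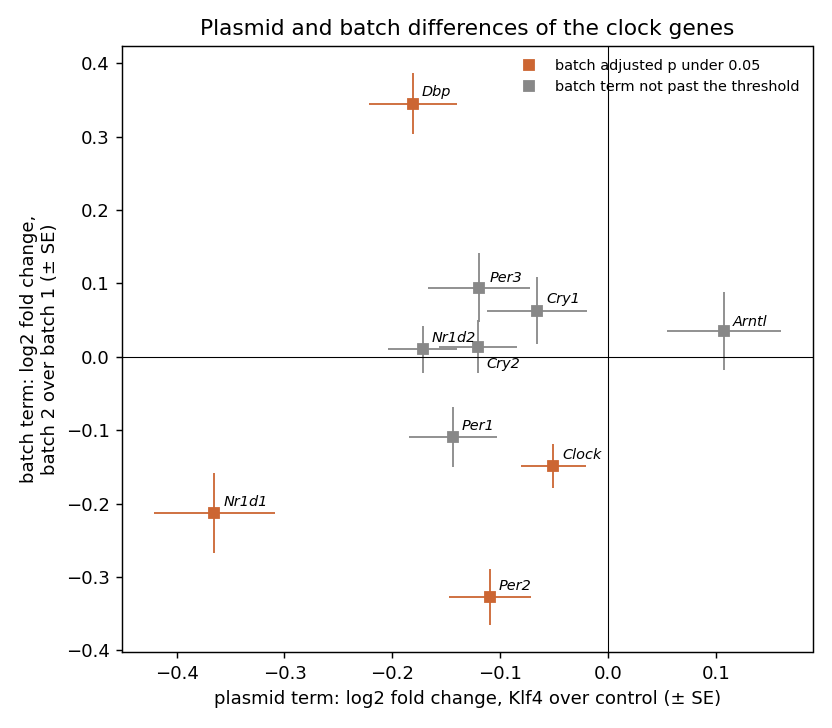
Plasmid term (x axis, log2 fold change of Klf4 over control) against batch term (y axis, log2 fold change of batch 2 over batch 1) for each clock gene, with bars of 1 SE. Dbp lies at -0.18 and 0.34 and Per2 at -0.11 and -0.33, lower with Klf4 and opposite by batch.

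Within single batches, 3 of the 10 genes passed the threshold in batch 1 (Nr1d1, Nr1d2 and Dbp), where 24.4% of all genes did. In batch 2 the count was 4 (the same genes and Per1), where 29.8% did. Each of these fits compares 2 libraries with 2. Of the 10 genes, 9 had a value below 0 in both batches, and Arntl was above 0 in both (0.07 and 0.15). In the fit of all 8 libraries, 9711 of the 18266 tested genes had a value below 0. The share of all genes below 0 in both batches was not computed.

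The effect of the plasmid differed between batches for 1 of the 10 clock genes, Nr1d1, against 0.766% of all tested genes. The interaction term was 0.36 (SE 0.07, edgeR adjusted p 0.00984), a smaller decrease in batch 2. The control libraries differed between batches (94.96 and 104 against 71.8 and 80.1 CPM), while the 4 Klf4 libraries lay between 64.7 and 69.6 CPM. The call was lost without control replicate 2 (0.27, edgeR adjusted p 0.0994), control replicate 3 (0.27, 0.19), Klf4 replicate 2 (0.33, 0.121) or Klf4 replicate 4 (0.32, 0.0524). Under the other alternatives the adjusted p was between 0.000124 and 0.0326. The level of Klf4 itself also rose more in batch 2, with an interaction term of 0.37 (edgeR adjusted p 0.0057), and its part in the Nr1d1 difference was not tested.

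**Figure D4:**
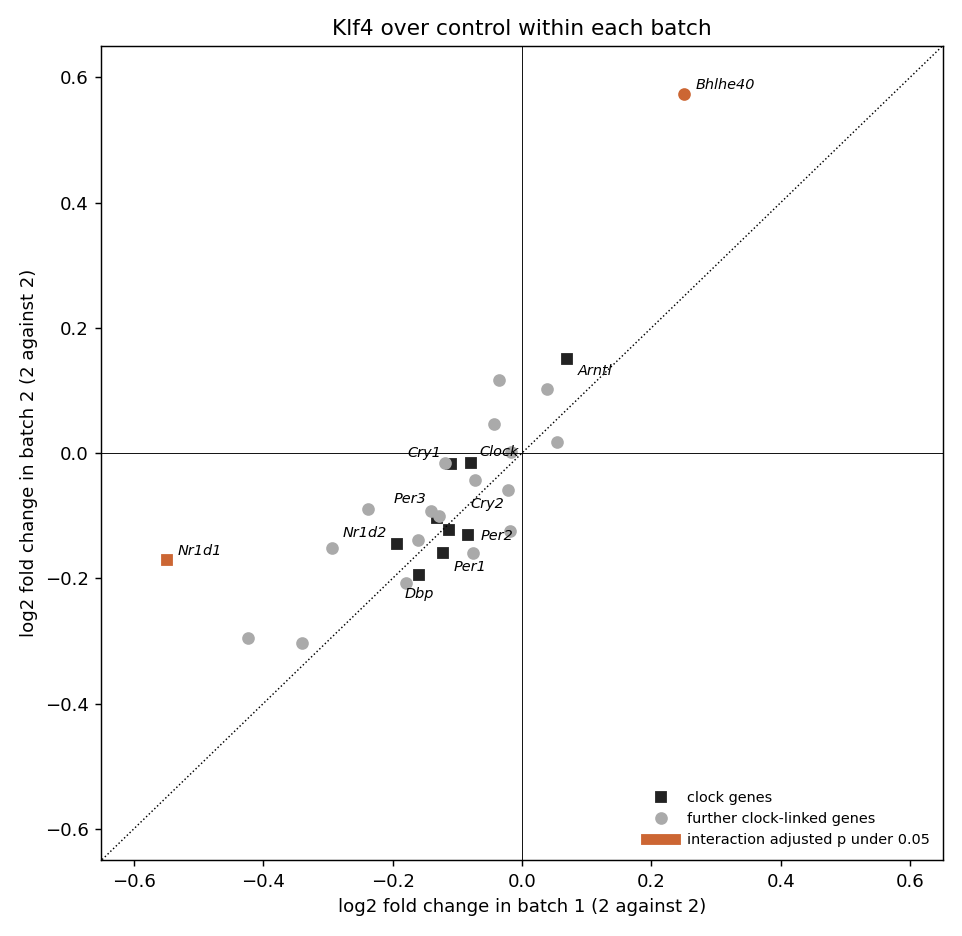
Log2 fold change of Klf4 over control in batch 1 (x axis) and in batch 2 (y axis), each from 2 against 2 libraries, for the clock genes (squares) and part of the further clock-linked genes (circles; Usp2 and Arntl2, which lie outside the axes, and Rorb, which rests on few counts, are among those left out). Orange marks genes with an interaction adjusted p under 0.05, Nr1d1 (-0.55 and -0.17) and Bhlhe40 (0.25 and 0.57).

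Among 10484 other genes with an average of at least 3 on the log2 CPM scale, the 3 with the pattern most like that of Nr1d1 over the 8 libraries were Txnip, Zfp850 and Lrrk2. Likeness was the root mean square difference of mean-centred log2 CPM, 0.06 for Txnip and 0.09 for each of the others, where Nr1d1 itself departed from its own mean by 0.24. Txnip (ENSMUSG00000038393), which encodes a thioredoxin-binding protein, was at 284.4, 295.6, 227.3 and 227.1 CPM in control and 210.5, 205.4, 202.2 and 213.0 CPM in Klf4 replicates 1 to 4. As for Nr1d1, its batch 1 controls were highest and its Klf4 libraries lay close together. This likeness follows from the way Txnip was chosen.

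A list of 26 further clock-linked genes was examined: partners and paralogs of the core factors, PAR bZIP factors, ROR receptors, kinases, ubiquitin ligases and known output genes. Of these, 24 passed the filter, all but Npas2, with at most 9 counts in a library, and Fbxl21, with none. In the plasmid term 15 of the 24 changed, 5 higher and 10 lower. Of all tested genes 36.6% were called, 21.1% higher and 15.5% lower. Of genes at or above the average level of the lowest clock gene, 45.2% were called, and 27.3% were called lower. Some genes of the list, such as Arntl2, lay below that level. The list's median log2 fold change was -0.05.

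The largest differences of the list were increases. Usp2, which encodes a ubiquitin-specific protease that acts on clock proteins, was at 14.1, 14.9, 16.5 and 16.0 CPM in control and 32.4, 34.5, 37.4 and 40.0 CPM in Klf4 replicates 1 to 4. It rose 2.35-fold (1.23 on the log2 scale, SE 0.05, adjusted p 1.95e-15 in edgeR), with 1.202 in batch 1 and 1.26 in batch 2. Arntl2, a paralog of Arntl, was at 1.32, 0.555, 1.04 and 1.22 CPM in control and 2.05, 2.5, 2.62 and 2.41 CPM in the Klf4 replicates, on 27 to 62 and 106 to 138 counts. It rose by 1.22 on the log2 scale (SE 0.20, edgeR adjusted p 3.13e-05), and its values in the groups did not overlap.

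Bhlhe40 and Bhlhe41 encode the repressors DEC1 and DEC2, which compete at E-boxes, and they moved in opposite directions. Bhlhe40 was at 59.4, 56.9, 53.8 and 53.7 CPM in control and 67.9, 71.0, 77.3 and 81.3 CPM in Klf4 replicates 1 to 4 and rose by 0.41 on the log2 scale (SE 0.05, adjusted p 2.82e-07 in edgeR). Bhlhe41 was at 55.2, 55.0, 49.6 and 49.3 CPM in control and 40.5, 47.1, 39.0 and 40.5 CPM in the Klf4 replicates and fell by 0.32 on the log2 scale (SE 0.04, adjusted p 1.78e-06 in edgeR). The ratio of Bhlhe40 to Bhlhe41 within a library was 1.03 to 1.09 in control and 1.51 to 2.01 in Klf4 libraries, with no overlap. Each gene was itself apart between the groups, in opposite directions, so the gap in the ratio follows from the values above.

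Ciart, which encodes the CHRONO repressor of CLOCK and BMAL1, fell, from 17.8, 17.9, 16.0 and 16.6 CPM in control to 13.0, 13.8, 12.8 and 13.5 CPM in Klf4 replicates 1 to 4 (-0.36 on the log2 scale, SE 0.06, adjusted p 1.9e-05 in edgeR). Cipc, whose product inhibits CLOCK, averaged 52.8 ± 1.72 CPM in control and 45.2 ± 1.37 CPM in Klf4 libraries (SD, n = 4) and fell by 0.23 on the log2 scale (adjusted p 5.72e-05 in edgeR). Both genes had all control libraries above all Klf4 libraries. Noct, a rhythmic output gene for the phosphatase nocturnin, fell by 0.20 on the log2 scale (edgeR adjusted p 7.13e-05), and Nfil3, a repressor that binds the same D-boxes as DBP, fell by 0.17 (0.00807). For both of these the groups overlapped across batches and were apart within each batch.

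Btrc, Timeless, Gsk3b, Tipin and Nono also fell, by 0.07 to 0.15 on the log2 scale. The DBP relatives Tef and Hlf had log2 fold changes of -0.06 and -0.07, with 95% intervals of -0.12 to -0.001 and -0.16 to 0.02 (adjusted p 0.105 and 0.241 in edgeR). Rora, a ROR receptor gene, had a log2 fold change of -0.01 (interval -0.10 to 0.08). In the batch term 11 of the 24 passed the threshold, 6 higher and 5 lower, beside 25.1% of all tested genes. Among the 11 were Nfil3 (-0.35) and Nampt (0.28), a gene of NAD synthesis. The interaction term passed for 1, Bhlhe40, beside 0.766% of all tested genes.

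**Figure D5:**
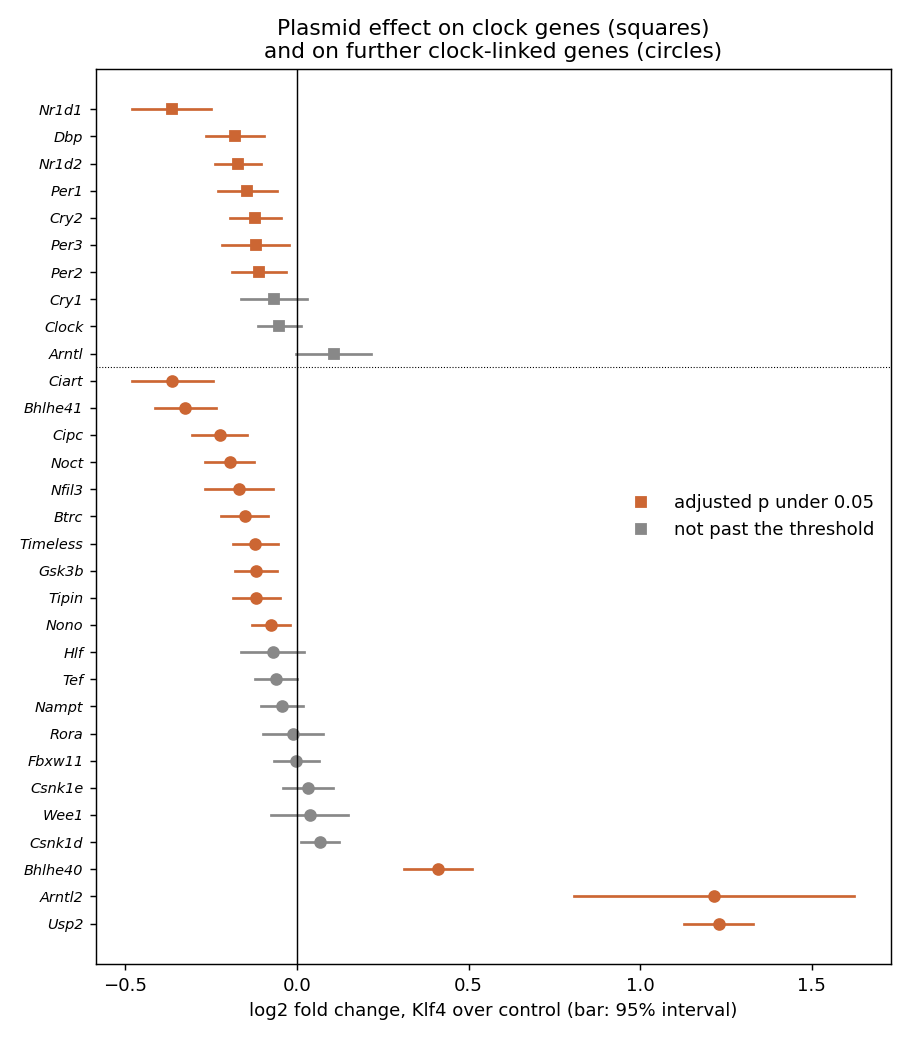
Log2 fold change of Klf4 over control with its 95% interval for the 10 clock genes (squares) and 21 of the further clock-linked genes (circles; Rorb, with as few as 2 counts in a library, is among those left out). Orange genes passed the adjusted p threshold; the clock genes run from -0.36 for Nr1d1 to 0.11 for Arntl, and Usp2 and Arntl2 lie highest at 1.23 and 1.22.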

How the data were processed

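RNA of 8 MIN6 samples was sequenced as polyadenylated RNA. The authors deposited raw counts, whole reads for each gene and library, neither normalised nor pooled. The submitters' processing notes name FastQC, STAR, featureCounts, edgeR and the build mm10, and the deposited counts carry cutadapt in their name. Versions, strand setting and annotation are not given in the sources used here. All 55536 identifiers and symbols were those of GENCODE M21 (GRCm38), from which spans and exonic lengths came.

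Counts were analysed in edgeR 4.0.16 (R 4.3.3) with filterByExpr (minimum count 10, removing 37270 genes), TMM factors (0.996 to 1.01) and a quasi-likelihood model with terms for batch and plasmid, the tool and correction that the series' design text names. Benjamini-Hochberg adjustment ran over all genes tested, and an adjusted p under 0.05 was a call. Log2 fold changes are Klf4 over control, and SEs are the fold change divided by the root of the F statistic. The batch term, an interaction fit and fits within each batch used the same steps. Single values were compared by exact permutation over 70 relabellings (smallest p 0.0286). Each library was counted as a replicate. Within a group, libraries differed beyond counting noise (chi-square per degree of freedom 4.25 to 5.77 within and 17.6 to 22.6 between batches). This spread cannot tell separate cultures from separate preparations of the same culture. The design text calls the libraries biological replicates without naming separate cultures, so p-values measure the spread between these libraries.

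Same-numbered libraries correlated in their deviations from the group means at 0.46 to 0.61 over 10485 genes, and at -0.05 to 0.08 once batch means were removed, so the numbers, which come from the sample titles, pair libraries through the batch. Alternatives were no batch term, the replicate block, DESeq2 1.42.0 size factors and Wald test, limma-voom (limma 3.58.1), factors from highly expressed genes (mean log2 CPM 6 or more), no filter, a filter at 1 CPM in 4 libraries, each library left out, and, chosen after seeing the data, an offset fitted to GC content and length (smoothing span 0.3). The procedure was checked on simulated data with the same spread beyond counting noise for all genes. Those data held no batch difference outside the genes changed on purpose. The check therefore does not cover the gene-to-gene spread and batch differences of these libraries. The members and lists were chosen with earlier results of these data known. Genes named are the 10 clock genes, Klf4, genes overlapping a clock gene, the 8 called genes of largest change in the further list with its rest as counts and ranges, and the 3 genes most like Nr1d1 in pattern. Camta1, Gm43658 and Ube2n-ps1 overlap Per3 or Clock without sharing exonic bases. Some genes of the further list are counted but not reported here by name. Other genes of that list and Cpb1 were named after their values were seen. Figures were made with Python 3.11.15.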

Additional observations from a re-analysis of the deposited data

Results flagged for a closer look

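For Nr1d1 the response to the Klf4 plasmid depended on batch, with an interaction term of 0.362 on the log2 scale (batch 2 against batch 1, edgeR adjusted p 0.00984), and so did that of Bhlhe40, with 0.306 (edgeR adjusted p 0.0186). The Bhlhe40 increase was 0.25 in batch 1 and 0.57 in batch 2. Its interaction call was lost in 6 of the 8 fits that left out 1 library, at 0.259 to 0.335 with adjusted p of 0.0573 to 0.127 in edgeR. Those 6 left out control replicates 1, 3 and 4 and Klf4 replicates 1, 2 and 4.

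Of 36 gene-and-group sets of 4 libraries, 2 held a library set apart from the other 3, where chance gives about 1.8. Control replicate 2 had 26.64 CPM of Cry1, where the remaining controls had 27.69 to 27.81 CPM. Klf4 replicate 1 had 43.14 CPM of Cipc, where its group otherwise had 45.66 to 46.17 CPM.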

How the results depend on the processing

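Of 180 plasmid results for single clock genes under the alternatives, 157 kept their side of the threshold, 20 lost a call and 3 gained one, the 3 being those of Arntl. No called gene changed sign. The count of 7 called clock genes became 2 with no batch term, 6 with the replicate block, in which Per3 alone lost its call, and 5 to 8 when a library was left out. Without control replicate 4, Per2 also lost its call (edgeR adjusted p 0.0673), and with factors from genes of high expression so did Per2 (0.141), Per3 (0.191) and Cry2 (0.08). With the offset for GC content and length together with the replicate block, 6 were called. The 15 calls of the further list became 10 with no batch term, 14 with the replicate block, 13 with the GC and length offset, 11 with that offset and the replicate block, and 12 to 15 when a library was left out. The count of batch differences stayed at 3 to 5 of 10, and that of interactions, 1, ranged from 0 to 1 when a library was left out (0 without control replicate 2 or 3 or Klf4 replicate 2 or 4). Over all genes, the interaction count was 140 and ranged from 48 to 261 when a library was left out, and it was 265 with no filter, 251 under the GC and length offset, 98 in limma-voom, and the plasmid count fell from 6684 to 4116 with no batch term. The replicate block changed the call of no clock gene other than Per3. The cause of these shifts was not tested. Counts of the 10 genes were 922 or more per library, and the shares of counting error and of spread between libraries in the width of the intervals were not tested.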
